A study of Mus musculus with 16 samples.

Results

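The liver makes fatty acids from acetyl-CoA and joins them to glycerol as triglyceride, and 33 genes of this route were followed across 16 liver RNA-seq libraries. The genes were taken by symbol from a list covering fatty acid synthesis, desaturation, elongation, NADPH supply and triglyceride synthesis together with their main transcription factors. All 33 were found among the 15544 genes measured, and 32 of them were high enough to be tested. Control females were Esr1 fl/fl, and mutant females were Esr1 fl/fl with Nkx2-1-Cre, so that both genotypes carried the floxed allele of Esr1, the gene of oestrogen receptor alpha. Nkx2-1-Cre acts in part of the hypothalamus, where it removes the receptor, and it is also known to act in other tissues that express Nkx2-1. The mice were of a mixed CD-1;129P2 background and 27 weeks old, and they ate chow or, for 17 weeks, a high-fat diet (HFD). Each of the 4 groups (control and mutant on chow, control and mutant on HFD) held 4 livers with 1 library each. The study asked which genes accompany the high bone mass of mutant females and its loss on HFD. The deletion lies in the brain, so no liver gene checks the genotype labels.

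In liver, insulin drives fatty acid synthesis through SREBP-1c, the product of Srebf1, and glucose drives it through ChREBP, the product of Mlxipl. Citrate leaves the mitochondrion and is split into acetyl-CoA, acetyl-CoA carboxylase makes malonyl-CoA, and fatty acid synthase builds palmitate with NADPH as the reductant. Elongases and desaturases then reshape the chain, and acyltransferases, lipins and the DGAT enzymes assemble triglyceride.

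Values are a length-adjusted signal on the TPM scale that the authors scaled between libraries, so levels can be compared between genes, whereas sequencing depth is unknown. In whole liver, fewer cells of a type and less RNA per cell cannot be told apart. Hepatocyte markers were high in every library, with 7 of 8 measured and a summed level of 58068 to 100053. Of 8 adipocyte markers 4 were measured, while Adipoq, Lep, Cfd and Retn were absent. The summed level of the 4 was 9.64 to 15.0. Lipe was the highest of them and reached 13.1, and Plin1, which coats the adipocyte lipid droplet, reached no more than 0.149. The library titles carry numbers that fall into a lower and a higher series within each diet. On HFD, mutant replicate 1 shares the lower title series with control replicates 1 to 3, and control replicate 4 shares the higher with the other 3 mutants. On chow, 1 mutant is in the lower title series and 3 are in the higher, each beside 2 controls. What the numbers stand for is not given in the labels, and diet and series cannot be told apart. In addition, 15 acute-phase genes summed to 23670 and 125537 in mutant chow replicates 1 and 2, against 11247 to 12836 in the other 6 chow libraries. In chow, the 8 Kupffer cell markers summed to 672 and 754 in those 2 libraries and to 164 to 520 in the other 6. On HFD, the acute-phase genes summed to 29918 in control replicate 1 and to 10791 to 16640 in the other 7 libraries. Control HFD replicate 1 was among the 3 lowest of all 16 libraries for 17 of the 32 tested genes. Mutant HFD replicate 1, with an acute-phase sum of 16640, was among them for 21. The share of all tested genes is not given for either library.

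Levels in the route spanned several orders of magnitude. Averaged over the 16 libraries, Scd1, the stearoyl-CoA desaturase that makes oleate, was the highest at 536, followed by Fads2 (529), the delta-6 desaturase, and Dgat2 (453), which adds the last acyl chain of triglyceride. Fads1, the delta-5 desaturase, was at 337, and Elovl5, an elongase of polyunsaturated chains, was at 290.1. At the other end, Pnpla3, a lipid droplet acyl hydrolase, was at 3.49 and Scd2, the desaturase paralogue that is prominent in brain, was at 2.39. Pnpla5, a related lipase, averaged 0.204 and was not tested. The spread between libraries also differed from gene to gene. Dgat2 varied least, with its highest library 1.48 times its lowest, and Tkt and Taldo1, enzymes of the non-oxidative pentose phosphate pathway, varied by 1.48 and 1.51 times. Acacb, the acetyl-CoA carboxylase of the mitochondrial surface, varied by 28.4 times, Pnpla3 by 27.7 times and Scd1 by 12.9 times.

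**Figure D1:**
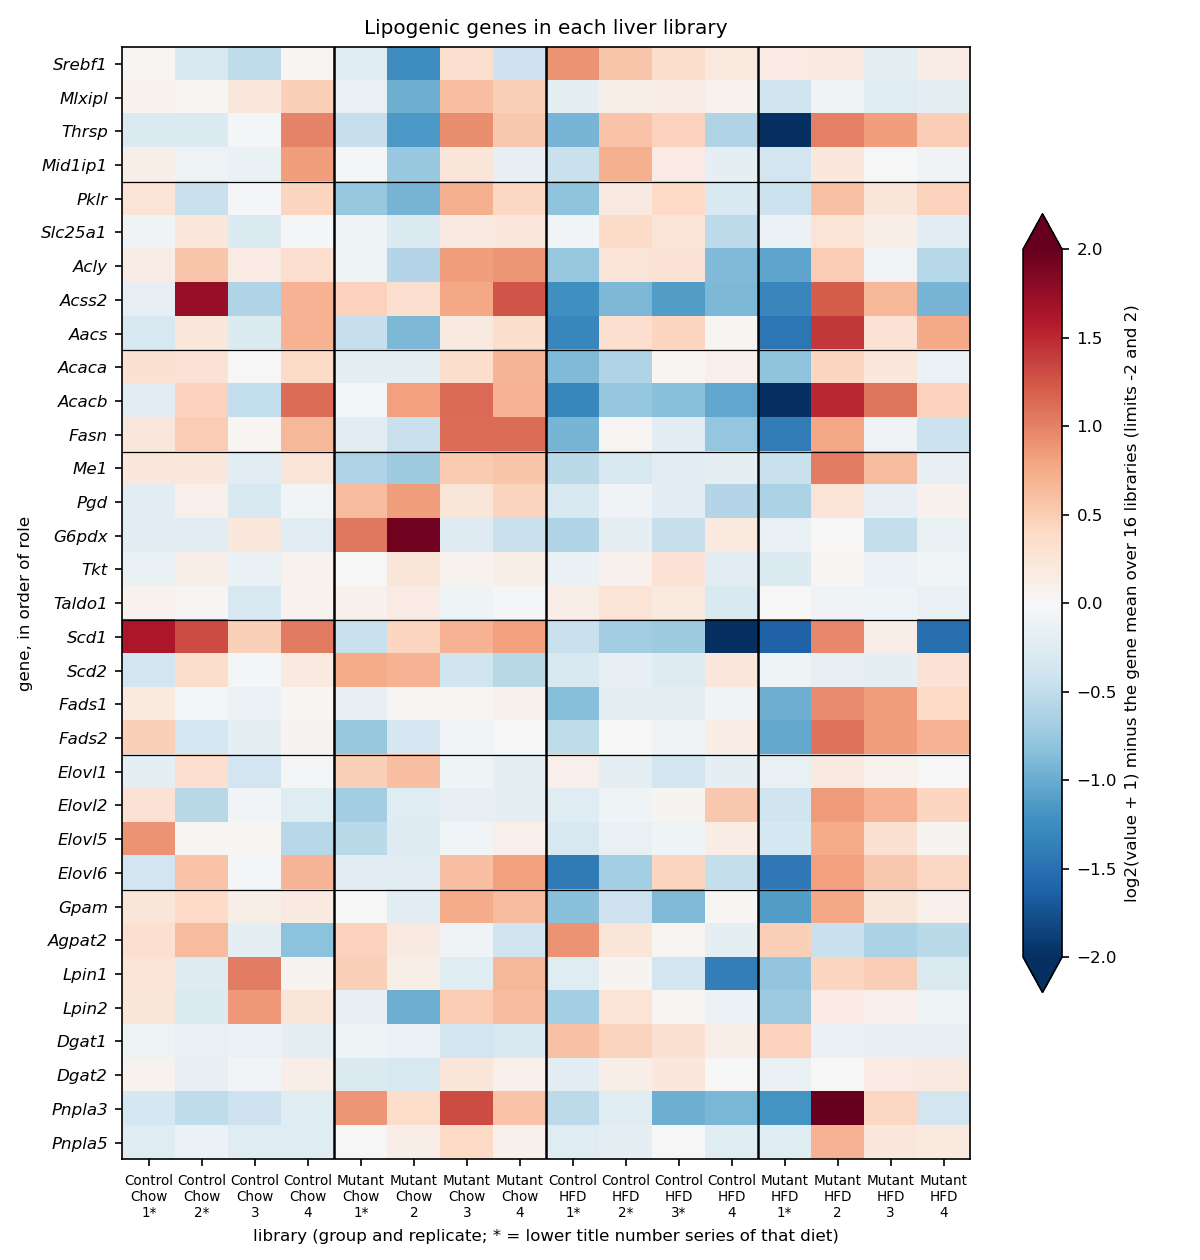
Heat map of all 33 genes (rows, in order of role) in the 16 libraries (columns, by group); colour is log2(value + 1) minus the mean of that gene over the libraries, and an asterisk marks the lower-numbered title series of a diet. Mutant HFD replicate 1 was the lowest library for 13 of the 32 tested genes, and mutant HFD replicate 2 was the highest for 9.

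The upstream sequences of 4 genes that recur below are shown because they differ in the CCAAT box, the site bound by NF-Y, a factor that works beside SREBP proteins. The sequences are the RefSeq bases before the transcription start (GRCm38.p6), read 5' to 3' on the gene's own strand, with CCAAT on either strand in capitals (ATTGG is the same box read on the other strand).
Fasn, fatty acid synthase, chr11:120824548-120824797, minus strand: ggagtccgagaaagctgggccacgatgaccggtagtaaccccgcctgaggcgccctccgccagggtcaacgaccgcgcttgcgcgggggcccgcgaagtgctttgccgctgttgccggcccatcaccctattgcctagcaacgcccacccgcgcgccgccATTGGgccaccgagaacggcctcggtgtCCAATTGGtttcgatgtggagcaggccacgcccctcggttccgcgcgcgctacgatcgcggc
Pnpla3, chr15:84167566-84167815, plus strand: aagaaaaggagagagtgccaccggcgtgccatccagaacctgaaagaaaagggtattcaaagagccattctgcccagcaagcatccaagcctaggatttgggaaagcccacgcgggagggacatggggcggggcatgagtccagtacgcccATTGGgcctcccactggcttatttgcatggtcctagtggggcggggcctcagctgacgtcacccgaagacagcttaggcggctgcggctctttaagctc
Gpam, mitochondrial glycerol-3-phosphate acyltransferase, chr19:55127239-55127488, minus strand: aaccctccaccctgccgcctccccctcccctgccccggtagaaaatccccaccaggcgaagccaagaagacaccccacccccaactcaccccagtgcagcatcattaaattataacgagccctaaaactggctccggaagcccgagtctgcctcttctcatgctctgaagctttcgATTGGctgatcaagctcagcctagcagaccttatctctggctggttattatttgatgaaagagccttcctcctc
Elovl2, an elongase of long polyunsaturated chains, chr13:41220406-41220653, minus strand: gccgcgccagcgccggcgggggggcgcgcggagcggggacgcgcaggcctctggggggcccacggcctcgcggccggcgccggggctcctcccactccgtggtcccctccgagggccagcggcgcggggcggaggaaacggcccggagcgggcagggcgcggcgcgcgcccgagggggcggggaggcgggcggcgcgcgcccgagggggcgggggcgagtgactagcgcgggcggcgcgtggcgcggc
The Fasn window held 3 CCAAT boxes, of which a pair overlap head to head, the Pnpla3 and Gpam windows held 1 each, and the Elovl2 window held none. RefSeq windows were matched for 28 of the 33 genes, and Scd1, Scd2, Fads1, Dgat1 and Dgat2 had none. Within 250 bases upstream, CCAAT was present in at least 1 window of 17 of the 28 genes, and 37.5% of all genes with a window had it. The GC box GGGCGG, counted on both strands, was present for 19 of the 28 genes and 35.4% of all genes, and the E-box CACGTG for 5 of the 28 and 6.86%. The sterol element letters TCACNCCAC (N being any base) were found for 1 of the 28, Mlxipl, and for 1.22% of all genes. Some genes had more than 1 window, and the 28 genes had 39. Counted by window, CCAAT was in 46.2% of the 39 and in 33.8% of all windows. The same shares were 56.4% and 32.7% for GGGCGG, and 12.8% and 6.02% for CACGTG. For TCACNCCAC they were 2.56% and 1.05%. These are matches of letters and say nothing of binding.

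On chow, no gene of the route passed the adjusted threshold of 0.05 between mutant and control livers (limma on log2(value + 1), Benjamini-Hochberg over 12704 genes, of which 0.0236% passed). At an unadjusted p under 0.05, 2 of the 32 were higher in mutants and 0 were lower, beside 4.23% and 1.85% of all tested genes. The 2 were Pgd and Pnpla3. The median difference of the 32 genes was -0.03 on the log2 scale, against 0.02 over all tested genes, and 14 of the 32 were positive.

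Pgd encodes the second NADPH-producing dehydrogenase of the pentose phosphate pathway (chr4:149149991-149166771, GRCm38). It was at 25.8, 32.3, 23.8 and 28.9 in control chow replicates 1 to 4 and at 47.2, 54.7, 35.5 and 41.1 in mutant chow replicates 1 to 4. All 4 mutant values lay above all 4 control values. The log2 difference was 0.66 (SE 0.185, limma unadjusted p = 0.00268, adjusted p = 0.59), and an exact permutation test of 4 against 4 gave its smallest possible two-sided p of 0.0286. The 2 highest values were those of mutant chow replicates 1 and 2, the libraries with raised acute-phase genes, while the other 2 mutant livers were also above every control.

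G6pdx, the first dehydrogenase of the same pathway, was at 11.4 and 21.8 in those same 2 mutant livers and at 3.96 and 3.38 in the other 2, with controls between 4.06 and 5.85. Its groups overlapped, and its log2 difference was 0.69 (SE 0.389, adjusted p = 0.856). Scd2 and Elovl1, an elongase of saturated very long chains, showed the same pair of high libraries. Scd2 was at 4.49 and 4.29 in them and at 1.22 to 3.16 in the other 6 chow livers. Elovl1 was at 54.7 and 59.6 in them and at 29.9 to 49.3 in the others. The part of the acute-phase and Kupffer cell signal in these values was not tested. Tkt and Taldo1 differed by 0.12 (SE 0.120) and 0.08 (SE 0.128), and Me1, the cytosolic malic enzyme and the other source of NADPH, by -0.19 (SE 0.324).

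Pnpla3 (chr15:84167837-84187236) was at 1.81, 1.52, 1.70 and 2.06 in control chow livers and at 5.68, 3.64, 7.87 and 4.34 in mutant chow livers. The groups did not overlap. The log2 difference was 1.16 (SE 0.495, limma unadjusted p = 0.0328, adjusted p = 0.804, exact permutation p = 0.0286). This was the only tested gene of the 33 whose mean was more than doubled on the log2(value + 1) scale in mutants on chow, with a fold of 2.24. Pnpla5, next to it on the same chromosome (chr15:84112356-84123175), was listed at 0 in 3 control chow livers and at 0.0852 in the fourth, and at 0.180, 0.297, 0.557 and 0.259 in the mutants. At such low values it was given no fold.

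The transcription factors did not separate by genotype on chow. Srebf1 (chr11:60199089-60222581) was at 261, 205, 178 and 259.8 in controls and at 215, 106, 317 and 190.0 in mutants, a log2 difference of -0.21 (SE 0.255, adjusted p = 0.995). Mlxipl (chr5:135089890-135138382) was at 198, 189.8, 219 and 262 in controls and at 169, 94.5, 286 and 262 in mutants, a difference of -0.21 (SE 0.255, adjusted p = 0.994). The mutant range enclosed the control range for both genes, and mutant chow replicate 2 was the lowest of the 8 livers for both. Their lipogenic partners Thrsp (Spot 14) and Mid1ip1, which activates acetyl-CoA carboxylase, differed by -0.13 (SE 0.622) and -0.36 (SE 0.268).

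Fasn (chr11:120805846-120824547) was at 179, 216, 157 and 243 in controls and at 132, 111, 330.3 and 329 in mutants on chow. The mutants split to either side of the controls. Those below were mutant chow replicates 1 and 2, the libraries with raised acute-phase and Kupffer cell genes, and the part of that signal in the split was not tested. The log2 difference was 0.03 (SE 0.424, adjusted p = 1.00). Acly, ATP citrate lyase, showed the same split, at 121 and 85.8 in those 2 mutants and at 230.4 and 239 in the others, around controls of 143 to 191. Scd1 (chr19:44394455-44407879) was at 1299.7, 1037, 583 and 866 in controls and at 310.3, 569, 680 and 740.1 in mutants. Its groups overlapped, with a log2 difference of -0.73 (SE 0.517, adjusted p = 0.926). Other genes of the route differed by between -0.36 (Mid1ip1) and 0.45 (Acacb) on chow.

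**Figure D2:**
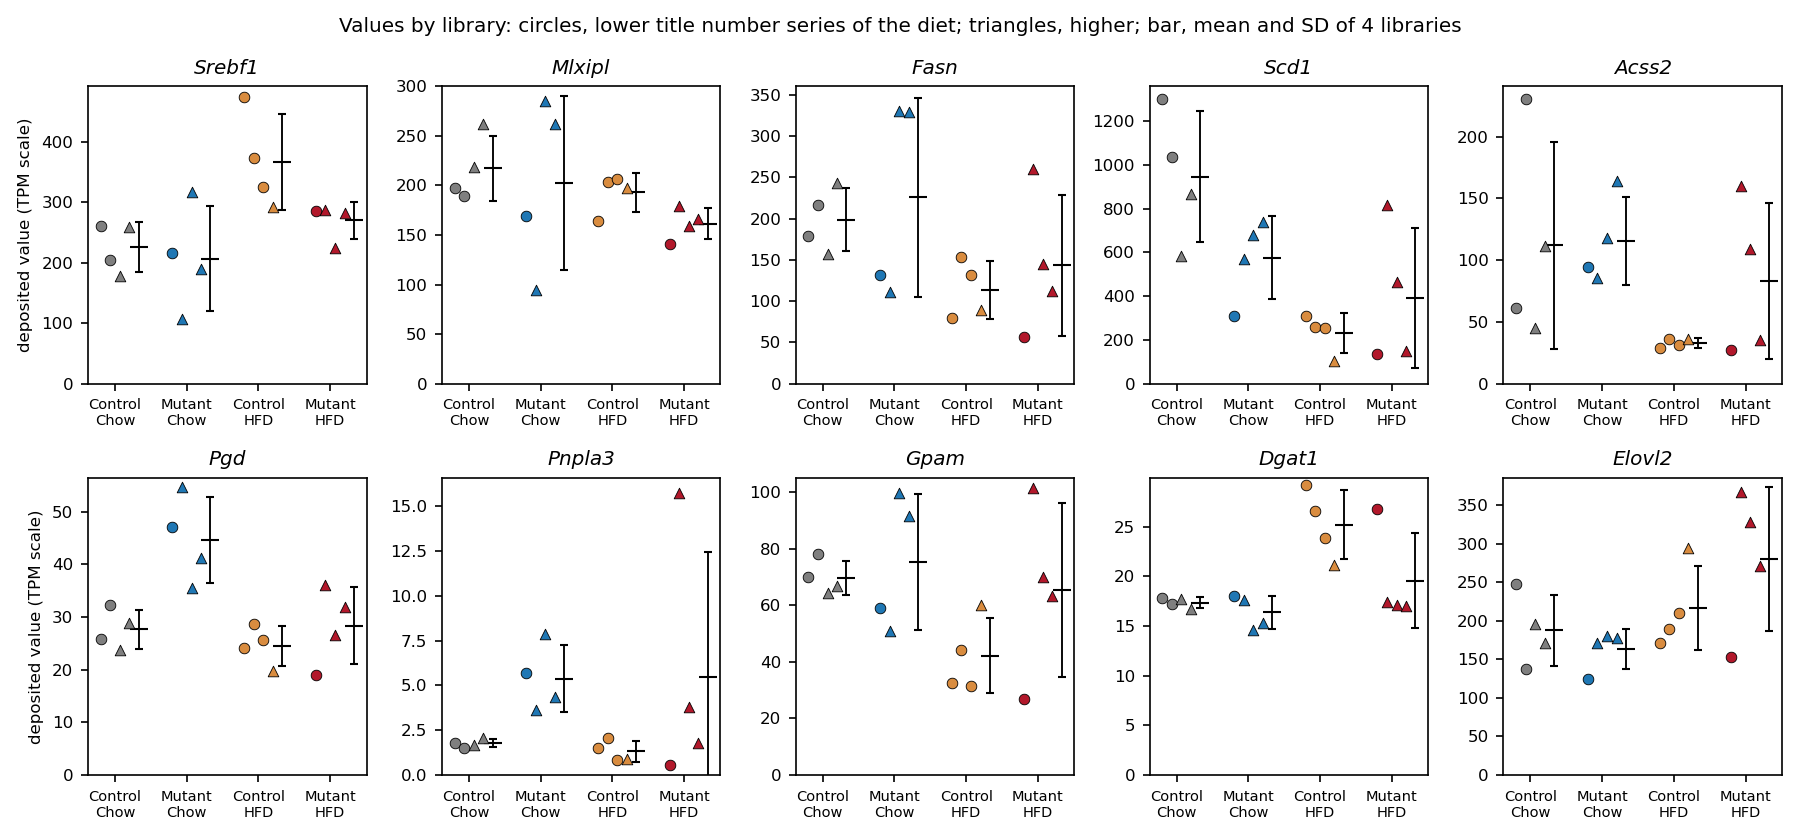
Deposited values (TPM scale, linear axes from 0) of 10 genes in each library by group; circles are the lower and triangles the higher title series of the diet, and the bar at the right of each group is the mean with SD (n = 4), cut off at 0. All 4 mutant chow livers lay above all controls for Pgd and Pnpla3. All 4 control HFD livers lay below all control chow livers for Scd1, Fasn, Acss2 and Gpam, and above them for Srebf1 and Dgat1. The share of all tested genes that separated so is not given here.

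On HFD, no gene of the route passed the adjusted threshold between genotypes either (background 0.0157%). At an unadjusted p under 0.05, 0 of 32 were higher and 1 was lower, beside 4.77% and 3.83% of all tested genes. With libraries rescaled to equal totals this single gene changed from Dgat1, lower, to Fads1, higher. The median difference was 0.19, against 0.02 over all tested genes, and 22 of the 32 were positive.

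Dgat1, the other enzyme that completes triglyceride (chr15:76502015-76511953), was at 29.2, 26.6, 23.9 and 21.1 in control HFD replicates 1 to 4 and at 26.7, 17.4, 17.1 and 17.0 in mutant HFD replicates 1 to 4. Mutant replicate 1 lay among the controls, and the other 3 lay below them. The log2 difference was -0.37 (SE 0.141, limma unadjusted p = 0.0199, adjusted p = 0.558, exact permutation p = 0.114). With title series in the fit it was -0.14. Left out of the fit, mutant HFD replicate 1 changed the call: the difference became -0.52 (adjusted p = 0.0439), and the adjusted p ran from 0.00194 to 1 over the alternatives tried.

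Srebf1 was at 474, 374, 325.1 and 292 in control HFD livers and at 286, 288, 224 and 282 in mutant HFD livers. All 4 mutants lay below all 4 controls, and the log2 difference was -0.42 (SE 0.255, limma unadjusted p = 0.119, adjusted p = 0.615, exact permutation p = 0.0286). The permutation exchanged livers without regard to title series. The lowest control, at 292, was the control of the higher title series. With title series in the fit the difference was -0.29 (SE 0.302). The share of all tested genes that separated so is not given. The Srebf1 value sums the transcripts of SREBP-1a and SREBP-1c, which share most exons. Mlxipl was at 164, 203, 207 and 198 in controls and at 141, 179, 159 and 166 in mutants. Its groups overlapped through control replicate 1, and its difference was -0.26 (SE 0.255, adjusted p = 0.734).

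Fasn, Scd1, Acacb, Pnpla3 and Acss2 spread more widely among the mutants than among the controls. Fasn was at 79.2, 154, 131 and 88.5 in controls and at 56.9, 259.5, 145 and 113 in mutants, a log2 difference of 0.19 (SE 0.424, adjusted p = 0.894). Scd1 was at 309, 260.0, 255 and 101 in controls and at 137, 817, 463 and 148 in mutants, a difference of 0.47 (SE 0.517, adjusted p = 0.761). Acacb was at 4.58, 7.09, 6.74 and 5.67 in controls and at 1.35, 38.3, 27.8 and 17.9 in mutants. The 3 mutants of the higher title series were at 17.9 or more, the mutant of the lower series was below every control, and the difference was 1.11 (SE 0.643, adjusted p = 0.606). Pnpla3 was at 0.824 to 2.05 in controls and at 0.568, 15.7, 3.80 and 1.80 in mutants (difference 0.93, SE 0.495, adjusted p = 0.588). Its mutant replicates 2 and 3 lay above the controls, replicate 4 lay among them and replicate 1 below. Acss2, which makes acetyl-CoA from acetate, was at 28.6 to 36.3 in controls and at 26.8, 160, 109 and 35.4 in mutants (difference 0.94, SE 0.524, adjusted p = 0.595).

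Leaving out mutant HFD replicate 1, which was the lowest library for 13 of the 32 genes, brought 3 genes past the adjusted threshold. Acacb was then higher by 1.998 (adjusted p = 0.0143), Fads1 was higher by 1.05 (adjusted p = 0.0115) and Dgat1 was lower as given above. In that fit 141 genes, 1.11% of all tested, passed. The mutants then left all belong to the higher title series, while 3 of the 4 controls belong to the other series. With library weights 9 of the 32 passed, while 30.9% of all tested genes did. Control HFD replicate 4 then had a weight of 0.228 and mutant HFD replicate 1 of 0.329, against 0.908 or more for the other HFD livers. Each of these low-weight livers is the only one of its genotype in its title series. The 9 were Acacb, Me1, Fads1, Fads2, Elovl2 and Gpam, higher in mutants, and Taldo1, Agpat2 and Dgat1, lower.

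Within the lower title series, the 1 mutant was below the mean of the 3 controls for 28 of the 32 genes, with a median difference of -0.42. Within the higher title series, the mean of the 3 mutants was above the 1 control for 26 of the 32, with a median of 0.46. The 2 differences had opposite signs for 30 of the 32 genes. The same counts over all tested genes are not given here, so these stand without that background. Fasn differed by -1.03 in the first series and by 0.86 in the second, Scd1 by -0.99 and 1.91, Lpin1, a phosphatidate phosphatase, by -0.59 and 1.59, and Pnpla3 by -0.62 and 1.67. Srebf1 and Mlxipl were the 2 genes with the same sign in both, at -0.43 and -0.15 for Srebf1 and at -0.43 and -0.24 for Mlxipl. Each of these differences rests on 1 library in 1 arm. A p-value for it has to assume that the lone library varies as the libraries of the other groups do. None is given beside these differences, while p-values of such fits enter counts and ranges over the alternatives. With the series as a term, the genotype difference on HFD had an unadjusted p under 0.05 for 0 of the 32 genes. The share of all tested genes was 4.47%.

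**Figure D3:**
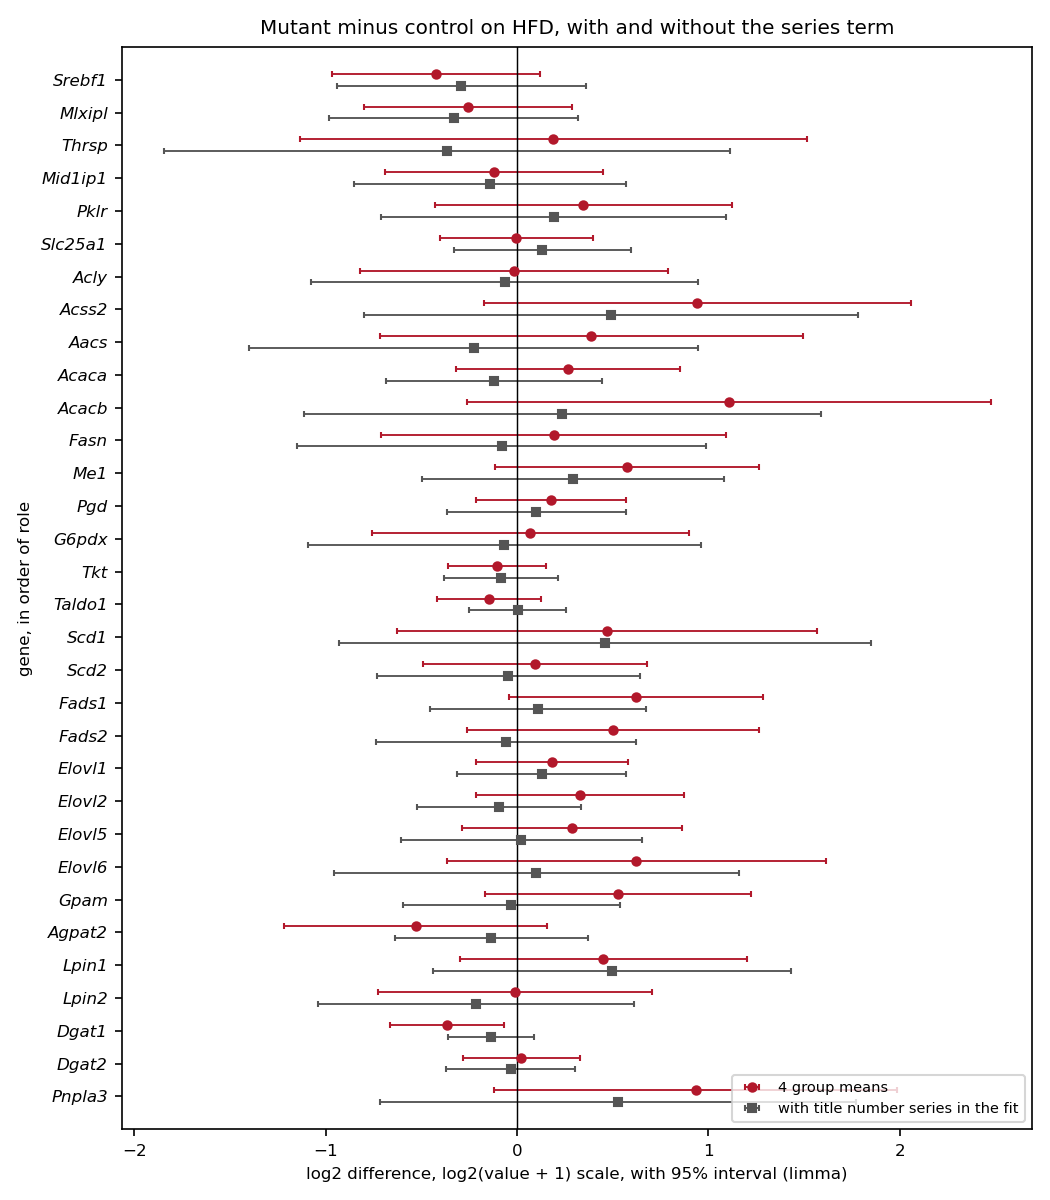
Log2 difference, mutant minus control on HFD, with its 95% interval from limma for the 32 tested genes (rows, in order of role); circles are the fit of 4 group means and squares the fit with title number series as a term. Dgat1 is the 1 gene whose interval lies off 0 in the first fit, at -0.37, and no interval does in the second.

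The difference between the title series of HFD livers was fitted with genotype in the model, a comparison added after the data were seen. Of the 32 genes, 5 were higher and 2 lower in the higher title series past the adjusted threshold, or 15.6% and 6.25%. Over all tested genes 13.5% were higher and 11.6% lower, so the share of the route was near that of the background. The 5 higher genes were Elovl2, Gpam, Fads1, Fads2 and Acaca, the cytosolic acetyl-CoA carboxylase, and the 2 lower genes were Dgat1 and Agpat2, which makes phosphatidate. Red blood cell markers moved with the same comparison. All 6 red blood cell markers tested were lower in the higher title series, 3 of them past the adjusted threshold, with a median of -1.08 and a difference of -1.83 for the alpha-globin gene Hba-a1 (adjusted p = 0.00727). The summed level of the 7 red blood cell markers was 4833 to 6925 in the lower series and 1695 to 4549 in the higher. Of the 8 Kupffer cell markers, 4 were lower and 4 higher, and C1qa, a complement gene of macrophages, was lower past the threshold (difference -1.09, adjusted p = 0.0421). Of 15 acute-phase genes, 1 passed, lower. The part of these markers in the difference between series was not tested.

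Elovl2 (chr13:41182381-41220405) was at 172, 189.5 and 209.7 in the controls and at 153 in the mutant of the lower title series, and at 294 in the control and at 367, 329 and 271 in the mutants of the higher. The series did not overlap, and the log2 difference was 0.85 (SE 0.199, adjusted p = 0.00843). Gpam (chr19:55067268-55127238) was at 32.7, 44.2, 31.6 and 26.8 in the lower series and at 60.2, 102, 70.1 and 63.4 in the higher, a difference of 1.11 (SE 0.263, adjusted p = 0.00882). Fads1 (chr19:10182888-10196877) was at 177, 279, 282 and 161 against 305, 618, 574 and 419 (difference 1.03, SE 0.262, adjusted p = 0.0129). Its neighbour Fads2 (chr19:10062765-10101746) was at 345, 496, 469 and 240.3 against 543, 1040.0, 874 and 799 (difference 1.12, SE 0.314, adjusted p = 0.0209). In both desaturase genes the 1 control of the higher series was nearer to the lower series than to the mutants beside it. Dgat1 was lower in the higher series (difference -0.46, SE 0.104, adjusted p = 0.00655), as was Agpat2 (difference -0.79, SE 0.233, adjusted p = 0.0256), and both lost the call with libraries rescaled to equal totals (-0.32 and -0.64). Acaca differed by 0.77 (SE 0.261, adjusted p = 0.0455) and passed in 5 of 14 alternatives, with an adjusted p of 0.0144 to 0.342. Agpat2 also lost the call without control HFD replicate 4 (difference -1.02). Without mutant HFD replicate 1, none of these 7 genes passed and the 1 gene that did was Taldo1. Differences without that library were 0.63 for Elovl2, 0.74 for Gpam, 0.34 for Fads1, 0.33 for Fads2 and -0.31 for Dgat1.

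In controls, HFD against chow gave the widest differences of the route, and again none passed the adjusted threshold (0% of tested genes did). At an unadjusted p under 0.05, 2 of 32 were higher on HFD and 4 lower, beside 6.4% and 6.52% of all tested genes. With libraries rescaled to equal totals the split was 1 higher and 6 lower, a scaling that moved the median of all genes from -0.01 to -0.16. The median of the 32 was -0.19 (all tested genes -0.01), and 24 of the 32 were negative.

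Scd1 ranged from 583 to 1299.7 in the control chow livers and from 101 to 309 in the control HFD livers. The groups did not overlap, and the log2 difference was -2.08 (SE 0.517, limma unadjusted p = 0.00104, adjusted p = 0.178, exact permutation p = 0.0286), a fold of 0.236. Acss2 (chr2:155517948-155585724) was at 60.7, 230.4, 44.7 and 112 on chow and at 28.6, 36.2, 31.0 and 36.3 on HFD. The groups did not overlap, and HFD values were within a narrow band (difference -1.45, SE 0.524, adjusted p = 0.284, exact permutation p = 0.0286). Gpam, which starts glycerolipid synthesis in mitochondria, was at 69.9, 78.2, 64.3 and 66.9 on chow and at 32.7, 44.2, 31.6 and 60.2 on HFD. Its groups did not overlap, and the HFD control of the higher title series was the one nearest to the chow values (difference -0.76, SE 0.327, adjusted p = 0.341). Fasn, from 157 to 243 on chow and from 79.2 to 154 on HFD, did not overlap either, with a difference of -0.84 (SE 0.424, adjusted p = 0.421). Nor did Acacb, from 8.77 to 28.7 on chow and from 4.58 to 7.09 on HFD (difference -1.20, SE 0.643, limma adjusted p = 0.446). Lpin1 (chr12:16535669-16610966) was at 46.1, 31.3, 78.4 and 39.5 on chow and at 31.7, 39.3, 28.7 and 13.97 on HFD. Its groups overlapped (difference -0.77, SE 0.352, adjusted p = 0.376).

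Dgat1 and Srebf1 went the other way in controls. Dgat1 was at 16.7 to 17.8 in all 4 chow controls and at 21.1 to 29.2 in all 4 HFD controls (difference 0.50, SE 0.141, unadjusted p = 0.00266, adjusted p = 0.212). Without control HFD replicate 4 it passed, with a difference of 0.58 (adjusted p = 0.0324), in a fit where 7.28% of all tested genes passed, and its adjusted p ran from 0.00500 to 0.57 over the alternatives. Srebf1 was at 178 to 261 on chow and at 292 to 474 on HFD (difference 0.69, SE 0.255, adjusted p = 0.292). Neither gene overlapped between diets, and for each an exact permutation test gave p = 0.0286. Mlxipl differed by -0.16 (SE 0.255, adjusted p = 0.807). The higher Srebf1 values stood beside lower values of Fasn and Scd1, genes that SREBP-1c is known to activate. Restricted to the HFD controls of the lower title series, Scd1 (-1.73), Gpam (-0.94) and Dgat1 (0.58) passed, where 11.1% of all tested genes did. With library weights Srebf1, Scd1, Gpam and Dgat1 passed, where 17.8% of all tested genes did. Control HFD replicate 4, the HFD control of the higher title series, had a weight of 0.228 in that fit.

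**Figure D4:**
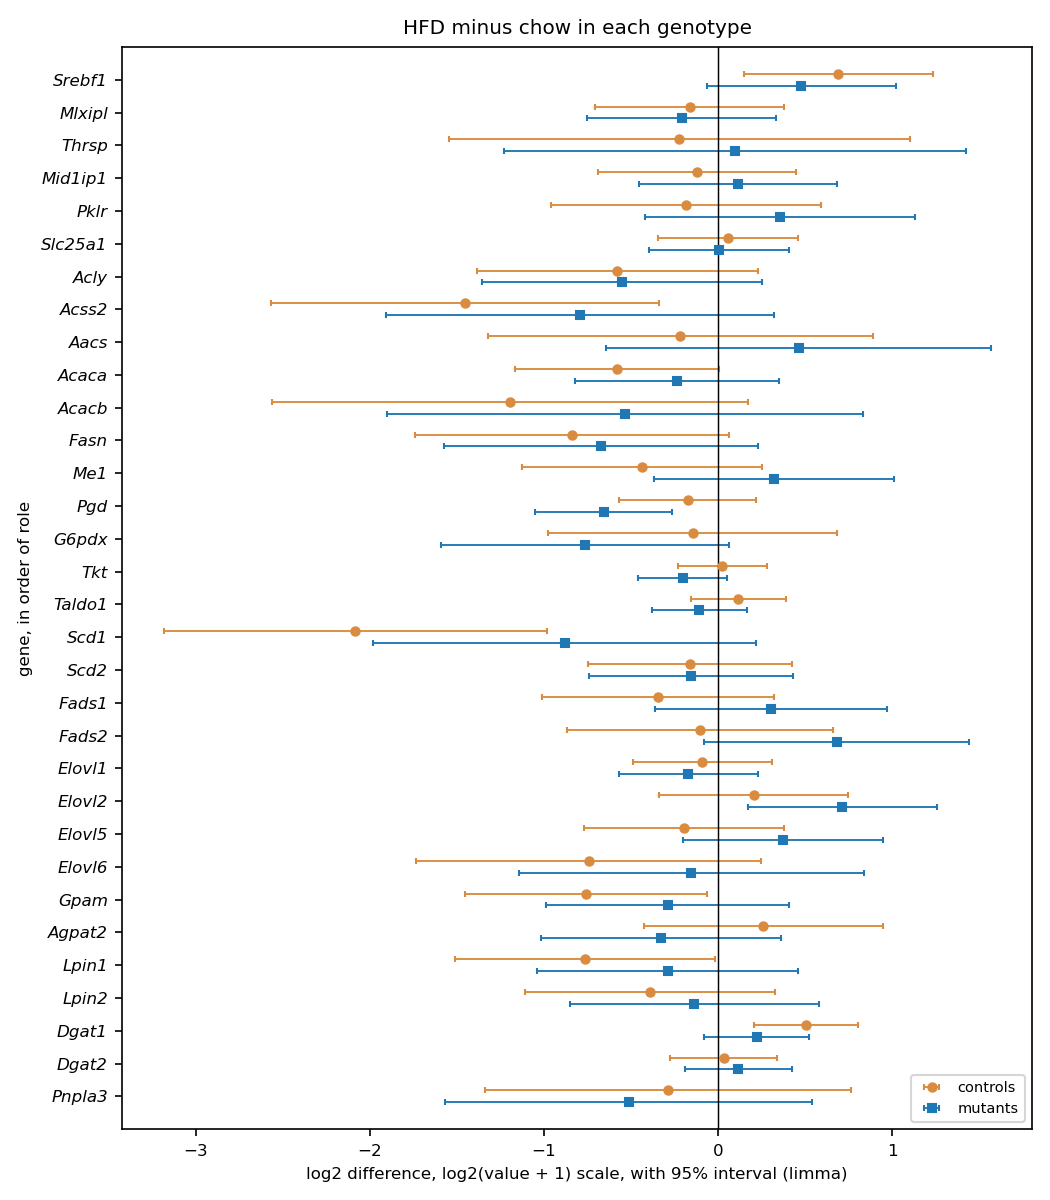
Log2 difference, HFD minus chow, with its 95% interval from limma for the 32 tested genes (rows, in order of role) in controls (circles) and mutants (squares). In controls the Scd1 estimate is -2.08 and that of Dgat1 0.50, and in mutants they are -0.88 and 0.22, with intervals that include 0 in mutants.

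In mutants, HFD against chow gave no gene past the adjusted threshold (0% of tested genes). At an unadjusted p under 0.05, 1 of 32 was higher and 1 lower, beside 2.71% and 4.16% of all tested genes. The median was -0.15, against -0.01 for all tested genes. Pgd was lower on HFD, at 18.9, 36.1, 26.6 and 31.8 against the 35.5 to 54.7 of chow mutants. The 2 highest chow values were those of replicates 1 and 2, the livers with raised acute-phase genes. Only mutant HFD replicate 2 reached into the chow range, and the difference was -0.66 (SE 0.185, limma unadjusted p = 0.00285, adjusted p = 0.546, exact permutation p = 0.0571). Elovl2 was higher on HFD, at 153, 367, 329 and 271 against 125, 171, 181 and 177 on chow. The mutant of the lower title series lay within the chow range and the other 3 lay above it (difference 0.71, SE 0.255, adjusted p = 0.623, exact permutation p = 0.114). With that 1 mutant as the only HFD mutant, the Elovl2 difference was -0.08. Srebf1 differed by 0.48 (SE 0.255, adjusted p = 0.753), Mlxipl by -0.21 (SE 0.255, adjusted p = 0.928), Fasn by -0.67 (SE 0.424, adjusted p = 0.813) and Scd1 by -0.88 (SE 0.517, adjusted p = 0.78).

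The genotype by diet interaction, which tests whether the genotype difference itself changed with diet, passed for no gene of the route (0% of tested genes). At an unadjusted p under 0.05 it was positive for 0 of 32 and negative for 0, beside 1.79% and 2.42% of all tested genes. The median was 0.25, against -0.01 for all tested genes, and 21 of the 32 were positive. Scd1 had an interaction of 1.203 (95% interval -0.35 to 2.76, adjusted p = 0.895), Srebf1 of -0.21 (-0.98 to 0.56, adjusted p = 0.93), Mlxipl of -0.04 (-0.81 to 0.72, adjusted p = 0.984) and Fasn of 0.16 (-1.11 to 1.44, adjusted p = 0.967). These intervals include differences of more than 2-fold in the positive direction for Scd1 and Fasn, and for Fasn in the negative direction also. No statement of equal effect can therefore be made. The 2 genes that stood apart between genotypes on chow had interactions of -0.48 (Pgd, -1.04 to 0.07) and -0.23 (Pnpla3, -1.72 to 1.26).

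Other genes of lipid synthesis were counted for comparison, and none of those tested passed the adjusted threshold in the genotype, diet and interaction comparisons. At an unadjusted p under 0.05, 4.23% of all tested genes were higher and 1.85% lower in mutants on chow. The shares were 4.77% and 3.83% for genotype on HFD. For diet they were 6.4% and 6.52% in controls and 2.71% and 4.16% in mutants. Of 31 further lipid synthesis genes, 1 was higher and 0 lower in mutants on chow at an unadjusted p under 0.05, 3 higher and 1 lower in mutants on HFD, 3 higher and 6 lower on HFD in controls, and 1 higher and 2 lower on HFD in mutants. The 1 on chow was H6pd, the pentose phosphate dehydrogenase of the endoplasmic reticulum, at 93.1 ± 10.2 in controls and 128 ± 22.7 in mutants (SD, n = 4, log2 difference 0.45, adjusted p = 0.627). Gpat4, a microsomal glycerol-3-phosphate acyltransferase, was at 45.3 ± 6.78 in control and 33.3 ± 2.64 in mutant HFD livers (difference -0.42, adjusted p = 0.516). Of 29 regulators, 0 were higher and 0 lower by genotype on chow, 2 were higher and 0 lower by genotype on HFD, 1 was higher and 5 lower by diet in controls, and 1 was higher and 1 lower by diet in mutants. The regulators lower on HFD in controls included Srebf2, the cholesterol-directed SREBP gene, at 29.4 ± 8.69 on chow and 17.1 ± 0.975 on HFD (difference -0.70, adjusted p = 0.199), and Scap, the sterol sensor that escorts SREBP proteins, at 82.4 ± 13.1 and 51.8 ± 7.64 (difference -0.66, adjusted p = 0.224). Cholesterol synthesis genes gave 0 higher and 19 lower of 22 on HFD in controls at an unadjusted p under 0.05, with a median of -1.37, and 4 higher and 0 lower in mutants on HFD, with a median of 0.89. Their summed level in mutant HFD livers ranged from 757 to 3188, and in control HFD livers from 816 to 1251. The mutant at 757 was that of the lower title series, the mutants of the higher were at 1331 or more, and the control of the higher series was the highest control. Between the title series of HFD livers, with genotype in the fit, 12 of the 22 cholesterol genes passed the adjusted threshold, all higher in the higher series, with a median of 1.11. In the same comparison 4 of the 31 further lipid synthesis genes passed higher and 2 lower, and 5 of the 29 regulators passed higher and 5 lower, beside the 13.5% and 11.6% of all tested genes.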

How the data were processed

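Liver RNA of 16 mice was sequenced by bulk RNA-seq (NEBNext Ultra II libraries, NovaSeq). The authors assigned reads to mm10 with kallisto in gene mode and normalised with sleuth, and tool versions are not given in the sources used here. The deposited table gives each gene a signal in TPM-like units, which the authors scaled by size factors. This unit was inferred, since the columns sum to 905897 to 1119700 and not to a common total. Depth cannot be recovered, so precision comes from the spread between livers, and no counting interval was computed. Reads of similar transcripts, such as Scd1 and Scd2, were divided by estimation.

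Groups came from the genotype and treatment labels, with replicates numbered in sample order within a group. Differences were fitted on log2(value + 1) with limma 3.58.1 in R 4.3.3, which gives moderated tests, as 4 group means over 16 libraries with a variance trend. The filter asked for 4 libraries at a value of 1 or above, which 12704 of 15544 genes met. P-values were two-sided and adjusted by Benjamini-Hochberg over all of them, at a threshold of 0.05. The log2(value + 1) scale understates differences of low genes. Folds are 2 to the power of the log2 difference. Permutation tests over the 4 and 4 livers were exact, on log2(value + 1). The share of all tested genes whose groups did not overlap is not given, so separations of single genes stand without that background. The code was tested on simulated data. Members and comparison lists (further lipid synthesis, regulators, cholesterol synthesis, fasting and PPAR alpha targets, clock, acute-phase and cell type markers) were chosen with earlier results of these data known. Values and statistics are given for Srebf1, Mlxipl, Fasn and Scd1 throughout and, per comparison, for up to 6 genes of the route with the smallest unadjusted p under 0.05. Other genes were named after their values were seen. Alternatives were 2 other scalings, no filter, a filter at 5, a pseudocount of 0.1, only the groups compared, title series as a term, library weights, HFD libraries of 1 title series, and leaving out each library. Positions are GENCODE M21 on GRCm38 (mm10), matched by gene identifier. Upstream sequences are RefSeq windows on GRCm38.p6, trimmed to bases outside the GENCODE gene, at the outermost start. Nothing says whether livers of a group came from separate litters or cages.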

Additional observations from a re-analysis of the deposited data

Results flagged for a closer look

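By Dixon's criterion, the highest or lowest of 4 livers stood apart from the other 3 in 10 of 132 combinations of gene and group. A rate of about 1 in 20 holds for independent, normally distributed values. Genes here share the same livers, so the 10 cannot be weighed against that rate. On HFD, 2 of the 10 belonged to mutant replicate 1. It was at 188 for Agpat2, against 86.4 to 97.96 in the other 3 mutants, and at 26.7 for Dgat1, against 17.0 to 17.4. Mutant HFD replicate 3 was at 224 for Srebf1, against 282 to 288, and mutant HFD replicate 4 was at 3.02 for Scd2, against 1.89 to 2.08. Control chow replicate 3 stood apart for 3 genes that supply NADPH or belong to the pentose phosphate pathway. It was at 22.2 for Me1, against 30.0 to 30.9, at 5.85 for G6pdx, against 4.06 to 4.12, and at 107 for Taldo1, against 135 to 140.1. Control chow replicate 4 was at 453 for Thrsp, against 185 to 225. Mutant chow replicate 1 was at 125 for Elovl2, against 171 to 181. Control chow replicate 2 was at 0.0852 for Pnpla5, which was listed at 0 in the other 3 controls. With 3 values at 0, any value above 0 stands apart by this criterion.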

How the results depend on the processing

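No paired analysis was possible because the labels give no shared replicate numbers. Counts below are genes of the route out of those tested. Past the adjusted threshold, library weights gave 9 for genotype on HFD and 4 for diet in controls, and the lower title series of HFD alone gave 3 for diet in controls and 3 for diet in mutants (Acacb, Pgd and Pnpla3, all lower, resting on 1 HFD mutant). In fits of 1 title series an HFD arm holds 1 liver, assumed to vary as the other groups do. At an unadjusted p under 0.05 (share of all tested genes in parentheses), genotype on chow gave 1 with the filter at 5 (5.35%). Genotype on HFD gave 2 without a filter (8.04%), 0 with title series as a term (4.47%), 14 with weights (43.1%), 8 with the higher title series alone (6.54%) and 4 with the lower (2.55%). Diet in controls gave 10 with only the groups compared (12.3%). Diet in mutants gave 5 with weights (10.7%), 5 with the higher series (9.21%) and 14 with the lower (16.5%). The interaction gave 5 (25.7%), 5 (4.6%) and 4 (2.91%) in that order. With the lower series alone the median was -0.42 for genotype on HFD, and in the same setting -0.73 for diet in mutants, while the interaction median was -0.35.

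Some differences turned sign. Fasn on chow was -0.0068 with median-of-ratios scaling, -0.0518 with equal totals and -0.0548 with title series as a term, and Srebf1 and Mlxipl on chow were 0.0104 and 0.0783 with weights. For genotype on HFD, Fasn was -0.0808 with title series as a term, and with the lower series alone Fasn was -1.03, Scd1 -0.99 and Dgat1 0.013. For diet in mutants, Elovl2 was -0.0822 with the lower series alone. The Fasn interaction was -0.14 with weights, -0.0259 with title series as a term and -1.06 with the lower series, that of Scd1 was -0.26 with the lower series, that of Srebf1 0.0602 with the higher and that of Mlxipl 0.12 with equal totals. The cause was not tested. Leaving out control HFD 1, 2 or 4 or mutant HFD 1, 2 or 3 ended the call of Acaca between title series.

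Leaving out 1 library gave 0 to 3 adjusted calls for genotype on HFD, with 3 without mutant HFD 1, beside 1.11% of all tested genes. Diet in controls gave 0 to 1, with 1 without control HFD 4 (7.28%). Title series gave 1 to 8, with 1 without mutant HFD 1 (14.7%) and 8 without control HFD 3 (22.4%). Unadjusted counts ran from 1 to 3 for genotype on chow, 0 to 12 for genotype on HFD, 2 to 6 for diet in mutants, 0 to 9 in the interaction and 5 to 14 for title series, with 12, 9 and 5 the counts for genotype on HFD, the interaction and title series without mutant HFD 1, beside 20.1%, 10.2% and 29.2% of all tested genes. The 6 for diet in mutants, without mutant HFD 2, stood beside 5.97%, and the 14 for title series, without control HFD 4, beside 23.3%. The title series median ran from -0.0526 without mutant HFD 1 to 0.90 without control HFD 4. On chow, Srebf1 ran from -0.45 to 0.0747, Mlxipl from -0.42 to 0.11 and Fasn from -0.21 to 0.31, the ends being without mutant chow 3 and 2. On HFD, Fasn ran from -0.16 to 0.57 and Scd1 from -0.0172 to 0.84, without mutant HFD 2 and 1. Interactions ran from -0.50 to 0.0248 for Srebf1, -0.37 to 0.16 for Mlxipl and -0.19 to 0.54 for Fasn. Equal totals moved the median of all genes from -0.01 to -0.16 for diet in controls, from -0.01 to 0.13 for the interaction and from 0.04 to 0.17 for title series. Depth is unknown, so what it limits could not be given.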

Other observations

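Genes of fasting and of the clock, which share the liver's feeding rhythm with lipogenesis, were also counted. Of 16 fasting and PPAR alpha targets, 0 were higher and 3 lower in mutants on chow at an unadjusted p under 0.05. The shares of all tested genes were 4.23% and 1.85%. The median log2 difference of the 16 was -0.23. The 3 lower genes included Cyp4a14 and Cyp4a10, microsomal fatty acid omega-hydroxylases, with differences of -3.39 (SE 1.15, limma adjusted p = 0.729) and -2.03 (SE 0.792, adjusted p = 0.804). Mutant livers held Cyp4a14 at 147 ± 165, against 397 ± 168 in control livers (SD, n = 4). The summed level of the 16 genes was 2185 and 2421 in mutant chow replicates 1 and 2, the livers with raised acute-phase and Kupffer cell genes, and 4457 and 4524 in the other 2 mutants, with controls at 3308 to 5824. The part of that signal in the lower fasting genes was not tested. The Cyp4a genes are close relatives whose reads were divided by estimation. On HFD the same list gave 1 higher and 0 lower in mutants, beside 4.77% and 3.83% of all tested genes. Of 18 clock genes, 0 were higher and 0 lower in mutants on chow and 0 were higher and 1 lower in mutants on HFD. Diet gave 1 higher (Per1) and 1 lower (Clock) in controls, beside 6.4% and 6.52% of all tested genes. In mutants diet gave 1 higher (Per2) and 1 lower (Arntl), beside 2.71% and 4.16%. None of these genes passed the adjusted threshold. The time of day at which livers were taken is not given in the sources used here. Between the title series of HFD livers, with genotype in the fit, 2 of the 16 fasting genes and 4 of the 18 clock genes passed the adjusted threshold, beside 25.2% of all tested genes.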
